A study of Mus musculus with 22 samples.

Results

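The genes described here are 28 genes of cholesterol synthesis and its control by SREBP2, taken by name from the 55291 genes measured in mouse liver. They were chosen with earlier results of these data known. They comprise 20 enzymes, 4 genes of the SREBP2 sensor (Srebf2, Scap, Insig1 and Insig2) and 4 genes of sterol transport, uptake control, storage or export (Stard4, Mylip, Soat2 and Abca1). The enzymes build cholesterol from acetyl-CoA, except Ggps1, whose isoprenoid product leaves the path to cholesterol. All 28 occurred in the deposited table and passed the filter on low counts in every comparison.

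Cholesterol is built in the endoplasmic reticulum and cytosol of most cells, and the liver is a main site of its synthesis. The early enzymes make mevalonate and from it the isoprenoid farnesyl diphosphate, which also supplies dolichol, ubiquinone and the lipid anchors of prenylated proteins, and the later enzymes turn it into squalene, lanosterol and finally cholesterol. SREBP2, encoded by Srebf2, is a membrane-bound transcription factor that the escort protein SCAP carries to the Golgi for cleavage when membrane sterols are scarce. INSIG proteins hold SCAP back when sterols are plentiful, and the genes of most of the enzymes, and Insig1 itself, are known targets of SREBP2.

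The 22 libraries were made from the livers of male WT C57BL/6 pups, each injected into a vein on postnatal day 1, and the labels place the collection of the liver 36 hours after injection. The groups were PBS (n = 4), AAV9.empty, the AAV9 capsid without a vector genome (n = 4), rAAV9.CB.EGFP (n = 4), rAAV9.CB.ST3GAL5 (n = 3), rAAV9.CB.ST3GAL5.E332K (n = 3) and rAAV9.Syn1.ST3GAL5.miR122BS (n = 4). CB is the CMV enhancer with the chicken β-actin promoter, which is active in most cell types, and ST3GAL5 is human GM3 synthase, the sialyltransferase that opens ganglioside synthesis. In the label of the E332K vector the cargo carries the change E332K, and the study's text does not describe livers given that vector. The paper names E332K on both alleles of patient stem cells, and untreated neurons grown from them lacked major brain gangliosides. The activity of the E332K cargo in these livers was not measured here. In the Syn1 vector the neuronal human Syn1 promoter drives the cDNA, and target sites for miR-122, which hepatocytes make in abundance, stand in its transcript. These names are shortened below to the empty capsid, the EGFP vector, the ST3GAL5 vector, the E332K vector and the Syn1 vector. The pups were wild type, so each still had its own St3gal5, and the RNA came from whole liver.

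The libraries held 17164502 to 24305788 expected counts, the reads per gene as RSEM estimates them. Levels of 1 gene across livers are given as CPM, counts scaled to library size with TMM factors, and levels of different genes as TPM, which corrects for transcript length. Calls rest on edgeR's quasi-likelihood test between 2 groups with a threshold of 0.05 on the adjusted p and no minimum fold. Litters are not given in the labels, so the p-values cover the spread among these animals and no more. The 9 hepatocyte markers were all present and summed to 87504 to 162837 CPM. The gene Gm47283, which the annotation places on chromosome Y (GRCm38 positions 90784738 to 90816464), was at 0 in 9 livers. These were all 3 of the ST3GAL5 vector, replicate 4 of the empty capsid, replicates 1, 2 and 4 of the EGFP vector and replicates 3 and 4 of the Syn1 vector. In the other livers it stood at 10.03 to 32.0 CPM, and it was not used to tell sex. What this gene marks was not tested, and in the comparison of the ST3GAL5 and E332K vectors it cannot be told apart from the cargo. Between the ST3GAL5 vector and the empty capsid it is nearly confounded with the treatment, since only replicate 4 of the capsid was also at 0.

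Promoter sequence was looked at because SREBP2 and the factor NF-Y, which reads the letters CCAAT, are known to act together on genes of this pathway. RefSeq promoters of GRCm38.p6, from 250 bases before to 50 bases after the start of transcription, matched 23 of the 28 genes with 29 entries. Fdps, Fdft1, Sqle, Stard4 and Soat2 had no entry. The letters TCACNCCAC, one form of the sterol regulatory element, were searched on both strands and stood in 1.24% of all 32851 promoters and in 1 of the 29 entries, that of Hmgcs1. CCAAT stood in 37.4% of all promoters and in 20 of the 29 entries, or 69.0%. Acat2, Scap and Abca1 had no entry with it, Dhcr7 and Insig2 had it in 1 of 3 entries and Pmvk in 1 of 2, and neither motif's letters overlapped the other in Hmgcs1. The windows printed here belong to the genes that were lower with the Syn1 vector and held the motif, each 30 bases long, 5′ to 3′ on the strand where the motif reads forward, with the motif in capitals. The first is the sterol regulatory element of Hmgcs1 at chr13:119690204-119690233 on the plus strand, centred 133 bases before the start of transcription in its promoter entry. All distances are counted from the start in the promoter entry, which can differ from the start of the gene in the GENCODE annotation. The others are the CCAAT nearest before the start in Hmgcs1 (chr13:119690294-119690323, minus strand, 43 bases before), Idi1 (chr13:8885580-8885609, minus strand, 12 bases before), Cyp51 (chr5:4104709-4104738, minus strand, 27 bases before), Nsdhl (chrX:72918489-72918518, minus strand, 18 bases before), Sc5d (chr9:42264307-42264336, plus strand, 22 bases before) and Dhcr7 (chr7:143830153-143830182, minus strand, 47 bases before). In the GENCODE annotation the windows of Idi1, Cyp51 and Dhcr7 lie inside the gene. These genes start there at 8885501 (Idi1, plus strand), 4104746 (Cyp51, minus strand) and 143823145 (Dhcr7, plus strand). A match gives letters in a window and says nothing of binding.
Hmgcs1 sterol regulatory element: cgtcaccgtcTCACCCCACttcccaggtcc
Hmgcs1 CCAAT: gatccgctttcagCCAATgagaggcgggga
Idi1 CCAAT: tgtcggtcgccagCCAATggcaccttggac
Cyp51 CCAAT: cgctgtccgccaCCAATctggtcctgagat
Nsdhl CCAAT: agcatgattttgcCCAATgaggctagtctt
Sc5d CCAAT: tgcaggcagccggCCAATcagcagccggcg
Dhcr7 CCAAT: aggtcacagacgaCCAATcggaagtggatt

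All 28 genes were expressed in all 22 livers. By mean TPM over the 22 livers the most abundant were Fdps, farnesyl diphosphate synthase, at 144 TPM (67.6 to 324) and Hmgcs1, the cytosolic HMG-CoA synthase, at 79.3 TPM (39.4 to 124). They were followed by Tm7sf2, a sterol reductase, at 65.2 TPM and Ebp, a sterol isomerase, at 61.3 TPM. The lowest were Ggps1, geranylgeranyl diphosphate synthase, at 4.06 TPM and Mylip, the ubiquitin ligase of lipoprotein receptors, at 7.47 TPM. The ranges over livers overlapped between most neighbours in this order.

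The summed TPM of the 20 enzymes showed where the pathway as a whole stood in each liver. The sums were 812, 805, 838 and 842 TPM with PBS, 763, 879, 852 and 1021 with the empty capsid and 877, 762, 792 and 756 with the EGFP vector. With the ST3GAL5 vector they were 830, 869 and 805 TPM, with the E332K vector 930, 753 and 955, and with the Syn1 vector 530, 600, 677 and 592. Every Syn1 liver lay below every liver of the other 5 groups, and the other 5 groups overlapped. This sum is a description with no test. TPM is not scaled between libraries beyond its total, and on log2(TPM + 0.1) the median shift over all genes was −0.11 for the Syn1 vector, 0.12 for the ST3GAL5 vector and −0.12 for the E332K vector against the empty capsid, 0.21, 0.15 and 0.20 for the ST3GAL5 vector against the E332K, EGFP and Syn1 vectors, and within 0.1 of 0 in the remaining comparisons.

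**Figure D1:**
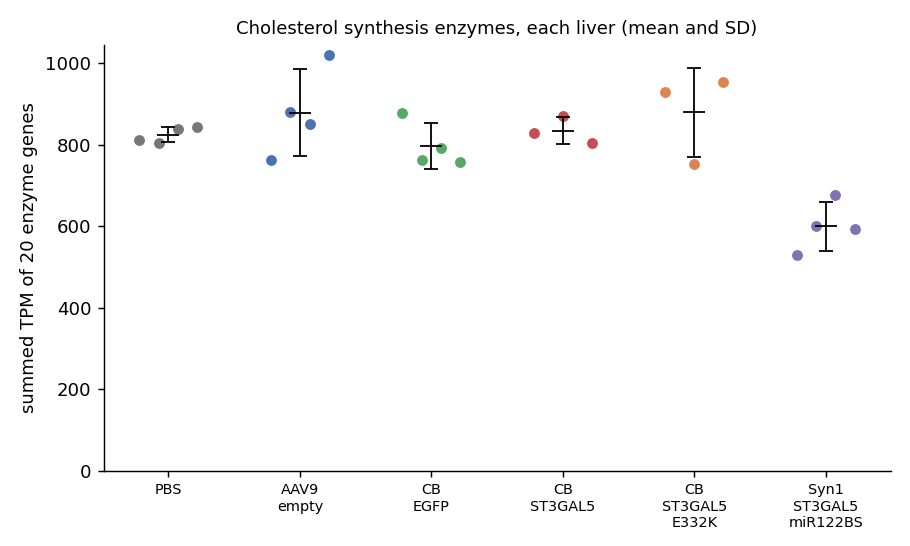
Summed TPM of the 20 enzymes of cholesterol synthesis (vertical axis, from 0) in each liver, by group, with points for livers, a line for the mean and bars for the SD. The 4 livers of the Syn1 vector sit between 530 and 677 TPM, below the other 18, whose lowest is at 753.

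The empty capsid against PBS asked what the protein shell alone does, and the EGFP vector against the empty capsid what a vector genome with an unrelated cargo does. None of the 28 genes was called in either comparison with edgeR or with DESeq2, against 0.104% higher and 0.207% lower among all genes tested for the capsid and 0.387% higher and 0.0553% lower for the EGFP vector. At an unadjusted p below 0.05 there were 3 and 4 of the 28, against 12.7% and 12.5% of all genes tested. The log2 fold changes ran from −0.23 for Lbr to 0.31 for Hsd17b7 with the capsid and from −0.24 for Fdps to 0.42 for Insig1 with the EGFP vector. Their medians were 0.04 and −0.07.

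The Syn1 vector against the empty capsid compared a vector whose cargo is directed to neurons with the capsid alone. Here 8 of the 28 genes were lower and 0 higher, against 2.5% lower and 2.88% higher among all genes tested. The 8 were Acat2, Hmgcs1, Idi1, Cyp51, Nsdhl, Sc5d and Dhcr7 among the enzymes, and Stard4, a carrier of cholesterol between membranes. The median log2 fold change was −0.50 over the 20 enzymes and −0.42 over all 28 genes, and 0.01 over all genes tested.

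Hmgcs1, whose enzyme makes HMG-CoA, was at 116, 135, 196 and 159 CPM in the Syn1 livers and at 245, 259.9, 277 and 332.4 CPM with the empty capsid. All 4 Syn1 livers lay below all 4 of the capsid, with a log2 difference of −0.89 with an SE of 0.149 (adjusted p = 0.00762), or 1.85-fold lower. Sc5d, the sterol desaturase late in the pathway, was at 99.8, 108, 112 and 109.7 CPM against 148, 135, 148 and 173 CPM. Its groups did not overlap either, with a log2 difference of −0.49 with an SE of 0.0875 (adjusted p = 0.009997). Dhcr7, the sterol reductase of the last steps, was at 34.1, 43.4, 51.8 and 42.7 CPM against 57.0, 71.4, 62.8 and 78.9 CPM, a log2 difference of −0.66 with an SE of 0.128 (adjusted p = 0.0147).

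Acat2, which joins acetyl-CoA units in the cytosol, had a log2 fold change of −0.44 (adjusted p = 0.0147), and Stard4 one of −0.50 (adjusted p = 0.0248). Idi1, the isomerase of isoprenoid units, Cyp51, which demethylates lanosterol, and Nsdhl, which helps remove the next methyl groups, had log2 fold changes of −0.52, −0.57 and −0.60 with adjusted p of 0.0364, 0.0423 and 0.0356. Just above the threshold stood Mvk, mevalonate kinase, at −0.41 (adjusted p = 0.05003) and Sqle, squalene epoxidase, at −0.66 (adjusted p = 0.0531). Sqle was at 32.9, 36.1, 64.2 and 54.97 CPM with the Syn1 vector and at 64.9, 76.6, 70.9 and 84.9 CPM with the empty capsid. Its 2 lowest livers, replicates 1 and 2, which were also the lowest for Hmgcs1 and Lss, carried Gm47283. The order was not shared by all the enzymes. For Dhcr7 replicate 4, where Gm47283 was at 0, lay below replicate 2, and a link to this gene was not tested.

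Hmgcs1 and Sc5d kept their calls in every alternative setting and without any 1 library. The calls of Acat2 and Dhcr7 were lost without replicate 2 of the empty capsid (adjusted p = 0.0553 and 0.0555), those of Idi1 and Cyp51 without any library but replicate 3 of the Syn1 vector (adjusted p up to 0.0969 and 0.128), that of Nsdhl without any but this one and replicate 1 of the empty capsid (adjusted p up to 0.117), and that of Stard4 without replicate 1, 3 or 4 of the capsid or 1 or 4 of the Syn1 vector (adjusted p up to 0.0692). The count of lower genes was 14 without replicate 3 of the Syn1 vector and 3 to 5 without any other library but its replicate 2, and it was 10 in the livers with Gm47283 alone.

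Some markers of other cells moved in the same livers. Called lower were 4 of the 8 Kupffer cell and monocyte markers and 2 of the 8 of sinusoidal endothelial cells. Called higher was 1 of the 10 erythroid markers, and of the 9 hepatocyte markers 0 were called. The 8 Kupffer cell and monocyte markers summed to 658 to 756 CPM with the Syn1 vector and 872 to 1252 CPM with the empty capsid, the 8 of sinusoidal endothelial cells to 346 to 459 and 443 to 525 CPM, and the 9 of hepatocytes to 109317 to 137756 and 121020 to 143996 CPM. No marker of these lists was at 0, and their part in the result was not tested. In bulk liver RNA, fewer cells of a type and less RNA per cell cannot be told apart.

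**Figure D2:**
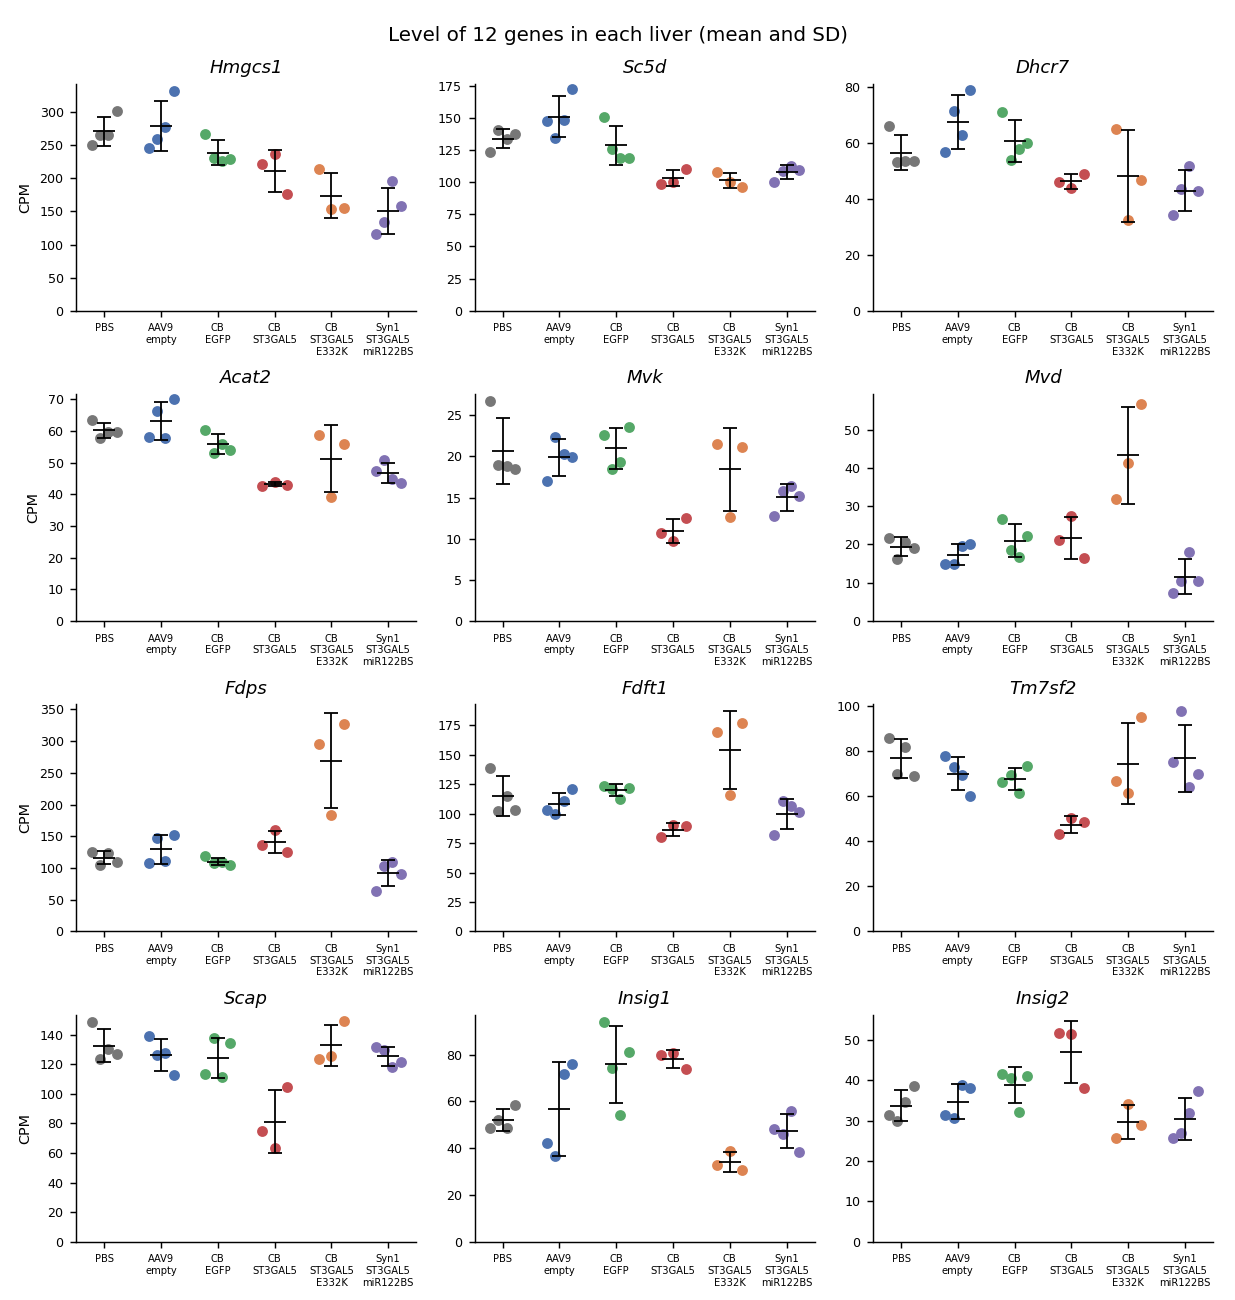
CPM (vertical axes, from 0) of 12 of the genes in each liver, by group, with points for livers, a line for the mean and bars for the SD. Hmgcs1 and Sc5d have their lowest means in the Syn1, E332K and ST3GAL5 groups, Mvd and Fdps are highest in the 3 livers of the E332K vector, and Mvk, Tm7sf2 and Scap are lowest in the 3 livers of the ST3GAL5 vector.

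The ST3GAL5 vector and the empty capsid differ in vector genome, promoter and cargo together, so this comparison does not single out the enzyme. With the ST3GAL5 vector 10 of the 28 genes were lower and 2 higher, against 14.3% lower and 13.8% higher among all genes tested. The lower genes were the enzymes Acat2, Hmgcs1, Mvk, Fdft1, Tm7sf2, Ebp, Sc5d and Dhcr7, the escort gene Scap and Stard4. The higher genes were Ggps1 and Insig2. The other 11 enzymes were not called, among them Hsd17b7 at −0.16, Nsdhl at −0.00 and Lss at 0.40. The median over the 28 genes was −0.13, and 0.02 over all genes tested.

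Mvk had the largest of these changes. It was at 10.7, 9.67 and 12.5 CPM with the ST3GAL5 vector and at 17.0, 22.3, 20.3 and 19.9 CPM with the empty capsid, so that the groups did not overlap, and its log2 fold change was −0.87 (SE 0.129, adjusted p = 0.00149). Acat2 was at 42.7, 44.0 and 43.0 CPM against 58.1, 66.4, 58.0 and 70.2 CPM, a log2 difference of −0.56 with an SE of 0.0880 (adjusted p = 0.00190). Acat2 shares 43.7% of its 31-base words with its neighbour in sequence Acat3, so its count is uncertain, and Acat3 was at 47.4 to 60.2 CPM with the ST3GAL5 vector, 79.0 to 86.4 CPM with the empty capsid and 66.0 to 85.6 CPM with the Syn1 vector.

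Tm7sf2 was at 43.0, 50.2 and 48.6 CPM against 77.8, 72.7, 69.1 and 60.1 CPM (log2 fold change −0.58, adjusted p = 0.00366). Ebp had a log2 fold change of −0.46 (adjusted p = 0.00364), Sc5d of −0.56 (adjusted p = 0.00312) and Dhcr7 of −0.56 (adjusted p = 0.00638), and the groups did not overlap for any of these genes. Lbr, the other sterol reductase of the step of Tm7sf2 and a protein of the nuclear envelope, was at 157 to 167 CPM against 127 to 161 CPM and was not called here or in any other comparison.

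Scap, which carries SREBP2 to the Golgi, was at 75.2, 63.7 and 105 CPM with the ST3GAL5 vector and at 139, 126, 127 and 112 CPM with the empty capsid, a log2 difference of −0.65 with an SE of 0.157 (adjusted p = 0.0143). The groups did not overlap, and replicate 3 of the vector lay closest to the capsid. Srebf2 itself was at 103, 107 and 104 CPM against 107, 121, 107 and 119.5 CPM (log2 fold change −0.13, adjusted p = 0.238). Insig2 was at 51.6, 51.4 and 38.2 CPM against 31.3, 30.6, 38.8 and 38.0 CPM (log2 fold change 0.43, adjusted p = 0.0396), with groups that overlapped. Insig1 was at 79.9, 80.8 and 73.6 CPM against 42.1, 36.8, 71.7 and 76.1 CPM, and the log2 fold change of 0.45 was not called (adjusted p = 0.187). The livers of the empty capsid lay in a lower and a higher pair.

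Acat2 and Mvk kept their calls in every alternative setting and without any 1 library, and Tm7sf2, Ebp, Sc5d, Dhcr7 and Stard4 without any 1 library. The call of Scap was lost without replicate 1 of the vector (adjusted p = 0.0653), that of Fdft1, squalene synthase, without this one or replicate 3 of the capsid (adjusted p up to 0.0934), those of Ggps1 and Insig2 without replicate 1 or 2 of the vector or 1, 2 or 4 of the capsid (adjusted p up to 0.0760 and 0.146) and that of Hmgcs1 without replicate 1 or 3 of the vector or 2, 3 or 4 of the capsid (adjusted p up to 0.108). No gene was higher without replicate 1 or 2 of either group, and 1 without replicate 4 of the capsid. The split was 3 higher and 6 lower in limma on log2(TPM + 1), and 0 higher and 8 lower with the presence of Gm47283 as a covariate in the fit of all 6 groups. The 9 hepatocyte markers summed to 87504 to 105364 CPM with the ST3GAL5 vector against 121020 to 143996 CPM, the 10 neutrophil markers to 2619 to 2950 against 1728 to 1891 CPM, the 8 endothelial markers to 364 to 439.8 against 443 to 525 CPM, the 10 erythroid markers to 3353 to 3625 against 2647 to 3267 CPM and the 5 cholangiocyte markers to 116 to 163 against 40.5 to 60.4 CPM. Of the hepatocyte markers 7 were called lower and 1 higher, and of the endothelial markers 4 lower and 1 higher. Called higher were 9 neutrophil, 5 erythroid and 3 cholangiocyte markers, with 0 lower in these lists. Of the 8 Kupffer cell and monocyte markers 4 were called lower and 1 higher, and of the 8 stellate cell markers 1 lower and 2 higher. The part of these markers in the result was not tested.

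The E332K vector against the empty capsid compared the changed cargo with the capsid alone. Here 5 of the 28 genes were lower and 4 higher, against 7.09% lower and 7.93% higher among all genes tested. Hmgcs1, Sc5d, Insig1, Stard4 and Abca1 were lower. Mvd, mevalonate diphosphate decarboxylase, Fdps, Fdft1 and Soat2, which esterifies cholesterol, were higher. The median log2 fold change over the 28 genes was −0.25, and −0.00233 over all genes tested.

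Mvd was at 31.8, 41.3 and 56.8 CPM with the E332K vector and at 15.0, 14.9, 19.6 and 20.01 CPM with the empty capsid. All 3 livers lay above every other liver of the series, the highest of which was at 27.4 CPM, and the log2 fold change was 1.299 (SE 0.178, adjusted p = 0.000531), or 2.46-fold. Fdps was at 295, 184 and 327 CPM against 107, 147, 112 and 152 CPM, a log2 difference of 1.04 with an SE of 0.178 (adjusted p = 0.00244). Its 3 livers too lay above all others, and replicate 2 was the closest to them. Fdft1, the next enzyme on the way to squalene, was at 169.8, 116 and 177 CPM against 103, 99.4, 111 and 121 CPM (log2 fold change 0.49, adjusted p = 0.0299), with replicate 2 inside the range of the capsid.

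Hmgcs1 was at 214, 153 and 155 CPM with the E332K vector, below all 4 livers of the empty capsid, with a log2 difference of −0.70 with an SE of 0.137 (adjusted p = 0.00551). Sc5d was at 108, 100.3 and 96.2 CPM, a log2 difference of −0.59 with an SE of 0.1002 (adjusted p = 0.00227). Insig1 was at 32.7, 38.8 and 30.6 CPM, with 2 livers below the lowest of the capsid at 36.8 CPM and a log2 difference of −0.75 with an SE of 0.224 (adjusted p = 0.0412). Abca1, the exporter of cholesterol to lipoprotein particles, had a log2 fold change of −0.33 (adjusted p = 0.0426), Stard4 one of −0.33 (adjusted p = 0.0436) and Soat2 one of 0.45 (adjusted p = 0.0331).

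The 3 livers of the E332K vector differed from each other. Replicate 2 had the lowest value of the 3 for 16 of the 20 enzymes, with Idi1 at 40.2 CPM against 98.2 and 51.5 CPM, Nsdhl at 11.8 against 36.5 and 20.6 CPM and Dhcr7 at 32.5 against 65.2 and 46.9 CPM. The log2 fold changes of Idi1, Nsdhl and Dhcr7 against the empty capsid were −0.61 (SE 0.246), −0.62 (SE 0.281) and −0.50 (SE 0.186), and none was called.

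Hmgcs1, Mvd and Sc5d kept their calls in every alternative setting and without any 1 library, and Fdps without any 1 library. The others were lost without 5 or 6 of the 7 libraries, with adjusted p up to 0.107 for Fdft1 (kept without replicate 4 of the capsid or 2 of the vector), 0.128 for Insig1 (kept without 1 or 2 of the capsid), 0.134 for Stard4 (kept without 2 of the capsid), 0.103 for Soat2 (kept without 1 of the vector) and 0.126 for Abca1 (kept without 2 of the vector), and the split was 2 higher and 5 lower in limma on log2(TPM + 1). The higher genes were 2 without replicate 1, 2 or 3 of the capsid or 3 of the vector, and the lower genes 2 or 3 without replicate 1, 3 or 4 of the capsid or 2 or 3 of the vector. In the livers with Gm47283 alone the split was 4 higher and 2 lower. Fdft1 overlaps the abundant gene Ctsb on the opposite strand in 18.3% of its exonic length, and the libraries keep no strand, so its count is uncertain. Ctsb was at 822 to 879 CPM with the E332K vector, 812 to 881 with the ST3GAL5 vector and 794 to 915 with the empty capsid. The Kupffer cell and monocyte markers summed to 658 to 830 CPM with the E332K vector against 872 to 1252 CPM, the hepatocyte markers to 106190 to 119878 against 121020 to 143996 CPM and the neutrophil markers to 2119 to 2643 against 1728 to 1891 CPM. The 8 stellate cell markers summed to 490.3 to 678 against 720.2 to 885 CPM, and the part of these markers in the result was not tested.

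**Figure D3:**
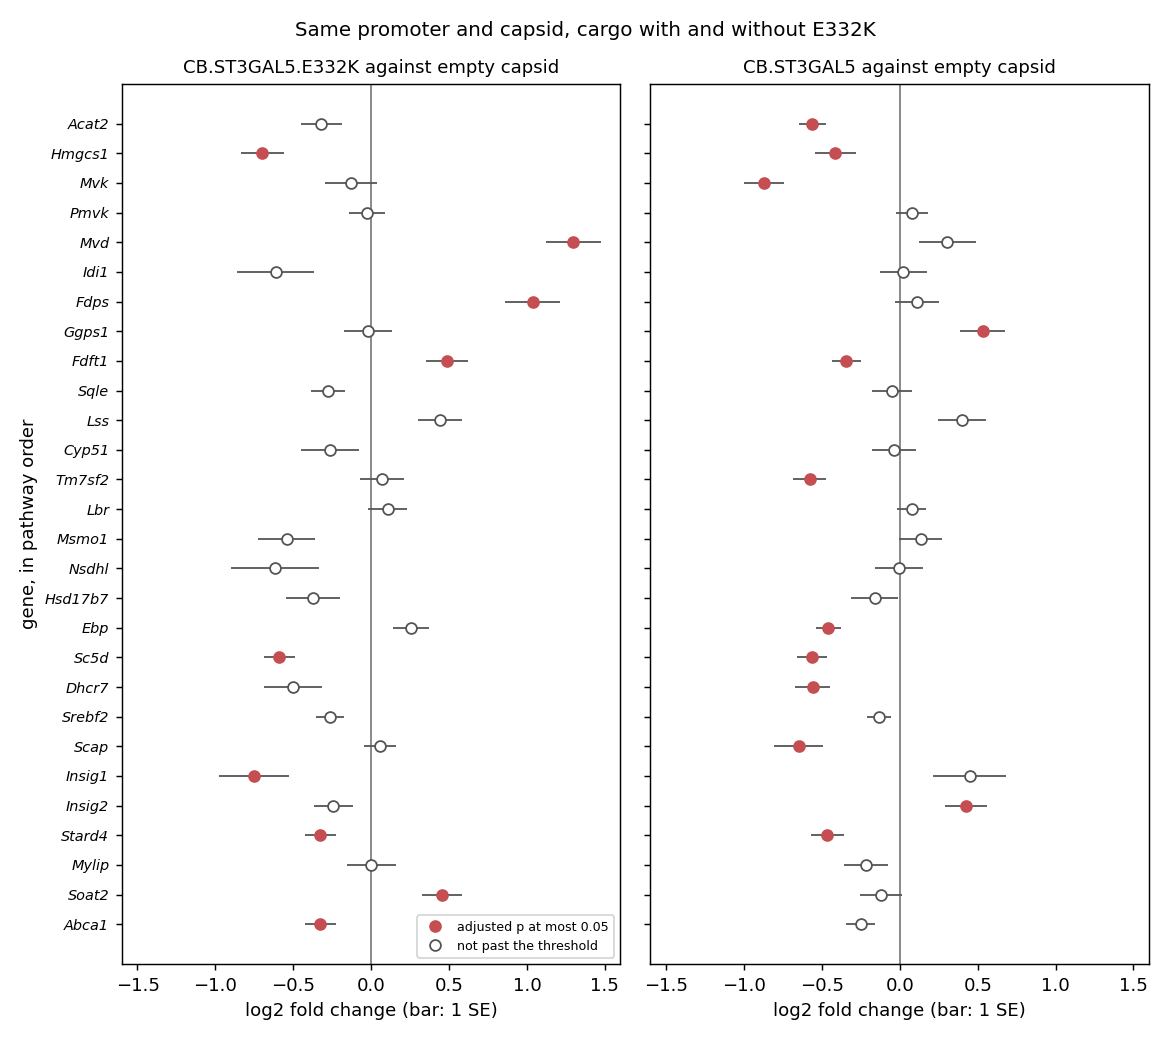
Log2 fold change against the empty capsid (horizontal axes, bars of 1 SE) of the 28 genes in pathway order, for the E332K vector (left) and the ST3GAL5 vector (right), with filled points for an adjusted p of at most 0.05. Mvd and Fdps stand at 1.299 and 1.04 on the left and at 0.31 and 0.11 on the right, and Mvk at −0.13 on the left and −0.87 on the right.

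The ST3GAL5 vector was also compared directly with the E332K vector, which has the same capsid and promoter and a cargo that differs in the label by E332K. Of the 28 genes 7 were lower and 2 higher with the ST3GAL5 vector, against 10% lower and 9.55% higher among all genes tested. The lower genes were Mvk, Mvd, Fdps, Fdft1, Tm7sf2, Ebp and Scap, and the higher genes were both INSIG genes. Insig1, which retains SCAP in the endoplasmic reticulum, was at 79.9, 80.8 and 73.6 CPM against 32.7, 38.8 and 30.6 CPM, with no overlap and a log2 difference of 1.21 with an SE of 0.120 (adjusted p = 0.00221). Insig2 was at 51.6, 51.4 and 38.2 CPM against 25.8, 34.1 and 29.1 CPM, also without overlap (log2 fold change 0.68, adjusted p = 0.0210).

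Mvd, Fdps and Fdft1 were 1.98, 1.89 and 1.77-fold lower with the ST3GAL5 vector than with the E332K vector, with log2 fold changes of −0.98 (SE 0.245), −0.92 (SE 0.214) and −0.82 (SE 0.170). Ebp, Scap, Mvk and Tm7sf2 followed at −0.70, −0.70, −0.73 and −0.64, with adjusted p of 0.0176, 0.0328, 0.0458 and 0.0351. For Hmgcs1, Sc5d and Dhcr7 the log2 fold changes were 0.29, 0.04 and −0.05 and were not called. The median over the 28 genes was 0.01.

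Insig1 kept its call in every alternative setting and without any 1 library. The other 8 calls were lost without replicate 1 of the ST3GAL5 vector, among them Mvk, Mvd, Fdps and Insig2 with adjusted p up to 0.150, 0.0939, 0.0812 and 0.0825 over all the libraries left out, so that 0 genes were lower and 1 higher without it. The 7 lower genes became 1 without replicate 1 or replicate 3 of the E332K vector, and the higher genes were 4 without replicate 3 of the ST3GAL5 vector or 1 of the E332K vector and 1 without 3 of the E332K vector. In limma on log2(TPM + 1) the split was 4 higher and 2 lower. The hepatocyte markers summed to 87504 to 105364 CPM with the ST3GAL5 vector and 106190 to 119878 CPM with the E332K vector, the stellate cell markers to 782 to 867.8 against 490.3 to 678 CPM and the cholangiocyte markers to 116 to 163 against 37.6 to 52.4 CPM. Of these, 4 of the 8 stellate cell and 3 of the 5 cholangiocyte markers were called higher, and 2 of the 9 hepatocyte markers lower and 1 higher. The part of these markers in the result was not tested.

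The ST3GAL5 vector against the EGFP vector compared 2 cargos behind the same promoter. Of the 28 genes 9 were lower and 2 higher, against 15.1% lower and 12.7% higher among all genes tested. The lower genes were Acat2, Mvk, Fdft1, Tm7sf2, Ebp, Sc5d, Dhcr7, Scap and Stard4, and the higher genes were Fdps and Ggps1. Mvk was at 10.7, 9.67 and 12.5 CPM against 22.5, 18.5, 19.3 and 23.6 CPM, a log2 difference of −0.96 with an SE of 0.132 (adjusted p = 0.00130). Fdft1 was at 79.8, 90.4 and 89.4 CPM against 124, 121, 113 and 122 CPM (log2 fold change −0.49, adjusted p = 0.00202), and Tm7sf2 had a log2 fold change of −0.54 (adjusted p = 0.00315). The groups did not overlap for any of these genes.

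Scap had a log2 fold change of −0.64 (adjusted p = 0.0195), with 75.2, 63.7 and 105 CPM against 113, 137, 111 and 134 CPM. Insig1 was at 93.8, 74.1, 54.2 and 81.1 CPM with the EGFP vector and was not called (log2 fold change 0.02, adjusted p = 0.926). Mvk, Fdft1 and Tm7sf2 kept their calls in every alternative setting and without any 1 library, and Acat2 and Stard4 without any 1 library. The count of lower genes was 5 without replicate 1 of the ST3GAL5 vector, where Ebp, Sc5d, Dhcr7 and Scap were lost (adjusted p from 0.0516 to 0.111 over the libraries without which they were), and the higher genes were 1 without replicate 2 of that vector and 0 without replicate 1 of it or 2, 3 or 4 of the EGFP vector and in the livers without Gm47283, where 9 were lower. In limma on log2(TPM + 1) the split was 3 higher and 4 lower. With the EGFP vector the hepatocyte markers summed to 128407 to 139422 CPM, above all livers of the ST3GAL5 vector, and 5 of 9 were called lower with the latter and 1 higher. The cholangiocyte markers summed to 43.1 to 63.5 CPM with the EGFP vector, below all livers of the ST3GAL5 vector, and 3 of 5 were called higher with the latter. Of the 8 endothelial markers 4 were called lower (364 to 439.8 against 438 to 512 CPM), the neutrophil sums overlapped, and the part of these markers in the result was not tested.

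The ST3GAL5 vector against the Syn1 vector compared vectors that differ in promoter and miR-122 sites. Of the 28 genes 9 were higher and 3 lower with the ST3GAL5 vector, against 12.1% higher and 11.3% lower among all genes tested. The higher genes were the enzymes Mvd, Idi1, Fdps, Lss, Cyp51, Msmo1 and Nsdhl with Insig1 and Insig2, and the lower genes were Mvk, Tm7sf2 and Scap. Lss, which folds squalene epoxide into lanosterol, was at 77.6, 96.9 and 71.6 CPM against 36.0, 37.2, 58.4 and 43.1 CPM, a log2 difference of 0.92 with an SE of 0.178 (adjusted p = 0.00762). Insig1 was at 79.9, 80.8 and 73.6 CPM against 48.2, 46.3, 55.9 and 38.4 CPM (log2 fold change 0.74, adjusted p = 0.00429). Neither gene's groups overlapped.

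Tm7sf2 was at 43.0, 50.2 and 48.6 CPM against 75.2, 97.8, 63.8 and 69.7 CPM, a log2 difference of −0.68 with an SE of 0.145 (adjusted p = 0.0109), and Scap and Mvk had log2 fold changes of −0.61 and −0.44. Hmgcs1, Sc5d and Dhcr7, lower with both vectors against the empty capsid, had log2 fold changes of 0.50, −0.05 and 0.12 between the 2 vectors and were not called, though on log2(TPM + 1) and log2(TPM + 0.1) Sc5d was called higher with the ST3GAL5 vector (log2 fold change 0.29). Idi1, Lss, Nsdhl and Insig1 kept their calls without any 1 library, and those of Mvk, Mvd, Cyp51 and Msmo1 were lost without replicate 1 or 2 of the ST3GAL5 vector among others (adjusted p up to 0.125, 0.135, 0.0974 and 0.124), as were those of Fdps and Insig2 (up to 0.0874 and 0.0791), and Scap and Tm7sf2 without replicate 1 (up to 0.0815 and 0.0535). Of the 12 calls, 0 were kept both in every alternative setting and without any 1 library. The 9 higher genes became 4 without replicate 1 or 2 of the ST3GAL5 vector and 5 without replicate 4 of the Syn1 vector, and the 3 lower genes 0 without replicate 1 of the ST3GAL5 vector. In limma on log2(TPM + 1) the split was 14 higher and 1 lower, and among the livers without Gm47283, 3 against 2, it was 1 and 1. The hepatocyte markers summed to 87504 to 105364 CPM with the ST3GAL5 vector and 109317 to 137756 CPM with the Syn1 vector, the neutrophil markers to 2619 to 2950 against 1519.6 to 2292 CPM and the cholangiocyte markers to 116 to 163 against 30.9 to 70.4 CPM. None of these sums overlapped, 6 of the 10 neutrophil and 2 of the 5 cholangiocyte markers were called higher, 3 of the 9 hepatocyte markers were called lower and 1 higher, and their part in the result was not tested.

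**Figure D4:**
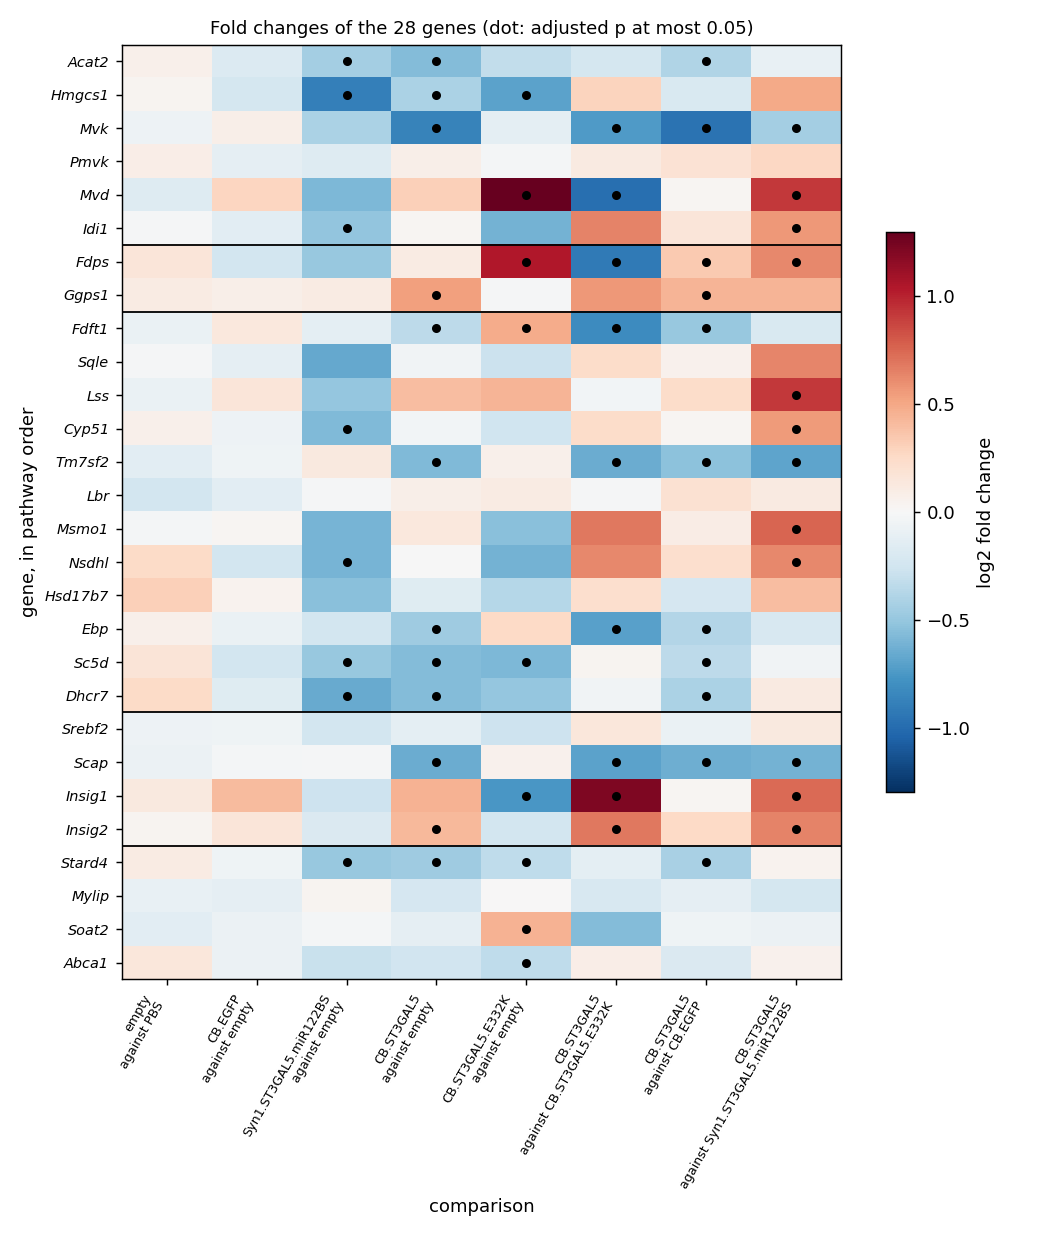
Log2 fold change (colour) of the 28 genes (rows, in pathway order, with lines between mevalonate, isoprenoid, sterol, SREBP2 and transport genes) in the 8 comparisons (columns), with a dot for an adjusted p of at most 0.05. The first 2 columns have no dot, the column of the Syn1 vector against the empty capsid has 8 dots, all for lower genes, and Insig1 stands at 1.21 in the column of the ST3GAL5 vector against the E332K vector.

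Across the 8 comparisons 6 of the 28 genes were never called, namely Pmvk, Sqle, Lbr, Hsd17b7, Srebf2 and Mylip. Srebf2 ranged from 89.5 CPM in replicate 2 of the E332K vector to 123 CPM with PBS, and its log2 fold changes ran from −0.26 to 0.14. Against the empty capsid, Hmgcs1, Sc5d and Stard4 were lower with all 3 of the Syn1, ST3GAL5 and E332K vectors, with log2 fold changes of −0.89, −0.41 and −0.70 for Hmgcs1, −0.49, −0.56 and −0.59 for Sc5d and −0.50, −0.47 and −0.33 for Stard4. The call of Hmgcs1 with the ST3GAL5 vector was lost on leaving out any 1 of 5 libraries. That of Stard4 was lost on leaving out any 1 of 5 with the Syn1 vector and any 1 of 6 with the E332K vector. Sc5d kept its 3 calls without any 1 library, but that with the ST3GAL5 vector not in every alternative setting. The 3 comparisons share the 4 livers of the empty capsid. For Hmgcs1, Sc5d and Stard4 in turn, the EGFP vector against the same livers gave −0.23, −0.23 and −0.05, none called. The empty capsid against PBS gave 0.04, 0.17 and 0.11, none called. The ST3GAL5 vector against the EGFP vector gave −0.20, which was not called, and −0.34 and −0.42, which were.

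Other genes around the pathway were counted in the same fits, and the shares of all genes called given above are their background. Of 17 genes of fatty acid synthesis and SREBP1, 8 were lower with the ST3GAL5 vector against the empty capsid, 3 were lower with the Syn1 vector, and 4 were lower and 1 higher with the E332K vector. Srebf1, which encodes SREBP1, was at 62.2, 69.2 and 74.1 CPM with the ST3GAL5 vector and at 128, 135, 136 and 119 CPM with the empty capsid (log2 fold change −0.93, adjusted p = 0.000212). Fads1, a fatty acid desaturase, was called lower in all 3, with log2 fold changes of −0.80, −0.45 and −0.47. With the E332K vector Me1, the malic enzyme that supplies NADPH, was the higher gene (log2 fold change 0.72, adjusted p = 0.00318).

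Of 10 LXR receptors and targets, which respond to oxysterols, 5 were lower and 1 higher with the ST3GAL5 vector, 0 with the Syn1 vector and 1 higher with the E332K vector. Abcg5 and Abcg8, the pair that exports sterols into bile, had log2 fold changes of −1.07 and −1.24 with the ST3GAL5 vector, and Nr1h3, which encodes LXRα, one of −0.65. Of 7 genes of oxysterol and bile acid synthesis tested with the ST3GAL5 vector, 5 were lower and 1, Ch25h, was higher. Cyp7a1, which opens bile acid synthesis, was at 0.78, 0.2 and 5.62 CPM against 23.6, 34.6, 19.4 and 22.2 CPM (adjusted p = 0.00603). Ch25h, which makes an oxysterol that blocks SREBP cleavage, was at 4.19, 17.5 and 1.87 CPM with the ST3GAL5 vector and at 0 to 0.101 CPM in the 19 livers of the other groups, which are at most 2 reads. It passed the filter on low counts through the ST3GAL5 livers alone, so its call was set by the filter and supports nothing. With the E332K vector 1 of 6 was higher, Cyp27a1 (log2 fold change 0.65, adjusted p = 0.0357), and none with the Syn1 vector.

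Of 15 genes of sterol transport and esterification, 4 were higher and 4 lower with the ST3GAL5 vector, 3 lower with the Syn1 vector and 2 higher and 2 lower with the E332K vector. Stard5, a lipid carrier, had a log2 fold change of −1.31 with the ST3GAL5 vector (adjusted p = 0.000359), Lipa, the lysosomal lipase, one of −0.42 with the Syn1 vector (adjusted p = 0.0144) and Soat1, the other gene of cholesterol esterification, one of −0.75 with the E332K vector (adjusted p = 0.000526). Gramd1c, a sterol carrier at membrane contacts, was the 1 gene of these lists called between the empty capsid and PBS, with a log2 fold change of −0.56 (adjusted p = 0.0239). Of 10 genes of SREBP cleavage and sterol-regulated degradation, 1 was higher and 2 lower with the ST3GAL5 vector, among them Mbtps1, the protease of the first cleavage (log2 fold change −0.30, adjusted p = 0.0394), and 1 was higher with the E332K vector, Ube2g2 (log2 fold change 0.59, adjusted p = 0.00790).

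Of 14 genes that use isoprenoids, 3 were higher with the E332K vector, among them Nus1 and Dhdds, which together make dolichol, with log2 fold changes of 0.41 and 0.47. With the Syn1 vector 2 were higher, the prenyltransferase subunits Rabggtb and Fntb, at 0.44 and 0.33. With the ST3GAL5 vector 3 were lower, the prenyltransferase subunits Rabggta and Fnta and the dolichol kinase Dolk, at −0.48, −0.34 and −0.49.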

How the data were processed

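Per the labels and the study's methods, liver RNA was enriched for poly(A), made into unstranded NEBNext Ultra libraries and sequenced in pairs, and the authors used Trimmomatic, STAR and RSEM on mm10 with GENCODE. The deposited expected counts are the reads the authors assigned to each gene with RSEM, and 5.69% of them were not whole. The deposited TPM values, also from RSEM by the authors, correct for transcript length. The GENCODE release is not given in the sources used here. No column of other samples was present. The transcripts of the cargos were not analysed here.

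Expected counts were rounded, filtered with filterByExpr, scaled with TMM and tested between 2 groups with edgeR 4.0.16 (quasi-likelihood F-test, R 4.3.3), with Benjamini-Hochberg adjustment over all 14473 to 14906 genes tested. The SE is the log2 fold change divided by the square root of F. CPM use TMM factors over all 22 libraries. Positions, shared 31-base words and overlaps come from GENCODE on GRCm38. Steps were tested on simulated data. The libraries held at least 17164502 counts, and 3 counts amount to at most 0.184 CPM, a floor for counting error only.

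Alternatives were DESeq2 1.42.0, median-of-ratios factors, no filter on low counts, all 6 groups in one fit, a block for the replicate number, the presence of Gm47283 as a covariate or livers alike in it, limma 3.58.1 on log2(TPM + 1) and log2(TPM + 0.1) with and without a filter at a mean of 1 TPM, and leaving out each library. A value that was called neither way counted as kept. Named were all 28 genes and, of each other list, up to 4 called genes with the smallest adjusted p. The genes and lists were chosen with earlier results of these data known.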

Additional observations from a re-analysis of the deposited data

Results flagged for a closer look

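Each of the 28 genes was looked at in each of the 4 groups with 4 livers, 112 sets in all, for a liver whose gap to the nearest other, as a share of the group's range, exceeded Dixon's critical value, which chance passes in about 1 in 20 sets. It was passed in 9 sets. In the EGFP group, replicate 1 was the highest for Hmgcs1 (268 CPM, others 227 to 231), Cyp51 (138 CPM, others 112 to 116) and Nsdhl (34.9 CPM, others 27.3 to 28.2). Replicate 3 of that group was the lowest for Insig2 (32.2 CPM, others 40.6 to 41.6), and replicate 4 the highest for Abca1 (156 CPM, others 141 to 142). With PBS, replicate 1 was the highest for Mvk (26.7 CPM, others 18.4 to 18.9) and Dhcr7 (66.2 CPM, others 53.1 to 53.6). Replicate 3 of the empty capsid was the lowest for Lbr (127 CPM, others 157 to 161), and replicate 3 of the Syn1 vector the highest for Srebf2 (113 CPM, others 89.6 to 93.0).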

How the results depend on the processing

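No gene was called between the empty capsid and PBS or between the EGFP vector and the empty capsid under any alternative. For the others the number of the 28 genes called moved as follows, and the cause was not tested. Lower with the Syn1 vector against the empty capsid, 8 genes became 14 with DESeq2, 14 without the filter on low counts, 15 with the replicate number as a block and 4 in unfiltered limma on log2(TPM + 0.1). With the ST3GAL5 vector against the empty capsid, the 2 higher genes became 1 with the block and 0 with Gm47283 as a covariate, and the 10 lower genes 6 on log2(TPM + 1), 6 on log2(TPM + 0.1) and 4 on the latter unfiltered. With the E332K vector against the empty capsid, the 4 higher genes became 2, 2 and 1 on these TPM scales, and the 5 lower genes 9 without the filter on low counts, 2 with the block, 2 on unfiltered TPM, 3 with the covariate and 2 in livers with Gm47283. With the ST3GAL5 against the E332K vector, the 2 higher genes became 4 with DESeq2, 4 without the filter, 5 with all 6 groups in one fit, 5 with the block, 4 on log2(TPM + 1) and 1 with the covariate, and the 7 lower genes 2, 2 and 1 on the TPM scales. Against the EGFP vector, the 2 higher genes became 1 without the filter, 1 with all 6 groups, 0 with the block, 1 with the covariate and 0 in livers without Gm47283, and the 9 lower genes 5 with the block and 4, 4 and 3 on the TPM scales. Against the Syn1 vector, the 9 higher genes became 1 with the block, 14 and 14 on the filtered TPM scales and 1 in livers without Gm47283, and the 3 lower genes 1 with the block, 1 on each TPM scale and 1 in those livers.

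Without 1 library the counts of higher and lower genes ran from 0 to 0 and 3 to 14 for the Syn1 vector, 0 to 2 and 7 to 12 for the ST3GAL5 vector and 2 to 5 and 2 to 7 for the E332K vector, each against the empty capsid. For the ST3GAL5 vector they ran from 1 to 4 and 0 to 7 against the E332K vector, 0 to 3 and 5 to 9 against the EGFP vector and 4 to 11 and 0 to 3 against the Syn1 vector. Of 2156 values of single genes under the other settings 1915 kept their side of the threshold, 142 lost a call, 96 gained one and 3 turned. The 3 were Sc5d between the ST3GAL5 and Syn1 vectors, at 0.29 (0.2853 on log2(TPM + 1), 0.2904 on log2(TPM + 0.1) with and without the filter) against −0.05. Of 1624 values without 1 library 1446 kept it, 144 lost a call, 34 gained one and 0 turned. Most of the values in both sets were not called in the main fit and count as kept where they stayed uncalled. The kept values are therefore not a share of calls kept. Deviations of 27 pairs of same-numbered livers correlated from −0.207 to 0.280, 8 of them over 0.1. With so few livers in a group, these values cannot exclude a pairing by replicate number.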
